A study of Mus musculus with 22 samples.

Results

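Small nucleolar RNA genes were taken from a gene count table of mouse hypothalamus as the rows whose symbol starts with Snord, Snora or Scarna and whose counts, summed over 22 libraries, reached 50. Of 41456 gene rows, 147 carry such a symbol, 142 of them have any count and 111 passed the sum of 50. The members were chosen by these summed counts, which are measured values of the same libraries. They are 67 box C/D genes (Snord), 37 box H/ACA genes (Snora) and 7 Cajal body genes (Scarna). Members with a Snord116 symbol number 14, and no member has a Snord115 symbol. Just inside the limit stood Snord71 with 50 counts, Snord73a with 54 and Snora35 with 72, and just outside it Snord95 and Snord98 with 47 each and Snord11 with 42.

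The mice were C57BL/6J, and the study addressed the effects of Snord116 loss and of lost sleep on hypothalamic RNA. Mutant mice, labelled PWScrm+/p−, lack Snord116 on the chromosome from the father, and control mice are labelled PWScrm+/p+. Hypothalamus was collected at zeitgeber time (ZT) 0, the start of the light period, at ZT 6, and at ZT 6 after 6 h of sleep deprivation (SD), with 3, 4 and 4 libraries in the control groups and 3, 4 and 4 in the mutant groups. Libraries were made with a kit that selects polyadenylated RNA. The labels give no age or sex and do not say which mouse each library came from, so p-values measure the spread between these libraries.

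Small nucleolar RNAs are short nuclear RNAs, most of which are cut out of the introns of host genes. Box C/D RNAs guide methylation of ribose in ribosomal RNA, and box H/ACA RNAs guide the change of uridine to pseudouridine. Cajal body RNAs guide both reactions on the RNAs of the spliceosome. Mature small nucleolar RNAs carry no poly(A) tail, and a poly(A) kit is not made to retain them. The imprinted clusters Snord116 and Snord115, processed from the long neuronal transcript Snhg14 of the paternal chromosome, have no known target in ribosomal RNA, and loss of Snord116 is linked to Prader-Willi syndrome.

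The sequences below show the members that the results turn on, with the class boxes in capitals, and were read from the GENCODE M21 transcripts (GRCm38), from the 5′ to the 3′ end of the RNA. In box C/D genes the capitals mark TGATGA within the first 20 bases (box C) and CTGA within the last 15 (box D), and in box H/ACA genes they mark ACA within the last 10.
Snord116l1: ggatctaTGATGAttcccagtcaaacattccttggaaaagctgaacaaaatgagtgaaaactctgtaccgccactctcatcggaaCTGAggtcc
Snord64: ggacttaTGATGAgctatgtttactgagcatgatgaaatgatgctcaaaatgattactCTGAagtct
Snord107: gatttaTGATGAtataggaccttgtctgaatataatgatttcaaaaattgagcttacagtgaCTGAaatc
Snord22: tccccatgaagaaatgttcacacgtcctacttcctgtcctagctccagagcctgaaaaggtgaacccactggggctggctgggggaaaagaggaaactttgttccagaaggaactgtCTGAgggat
Snord15b: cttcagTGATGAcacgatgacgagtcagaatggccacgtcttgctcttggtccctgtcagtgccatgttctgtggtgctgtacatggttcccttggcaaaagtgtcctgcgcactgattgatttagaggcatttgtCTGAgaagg
Snora73b: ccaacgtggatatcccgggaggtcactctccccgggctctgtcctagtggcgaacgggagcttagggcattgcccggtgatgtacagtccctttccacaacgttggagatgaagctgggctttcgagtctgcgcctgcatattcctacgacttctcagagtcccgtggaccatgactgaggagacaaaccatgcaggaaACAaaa
Snora65: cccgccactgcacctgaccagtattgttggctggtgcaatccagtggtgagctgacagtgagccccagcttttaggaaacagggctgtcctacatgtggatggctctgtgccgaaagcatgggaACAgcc
Snord116l1 stands for all 14 Snord116 members, which have this one sequence of 94 bases. Snord64 and Snord107 lie next to the Snord116 cluster, Snord22, Snord15b and Snora73b are abundant members with large differences between libraries, and Snora65 is an abundant member that hardly differs. In Snord22 the exact box C letters were not found in the window, which says nothing of whether a box is there. On the strand of the RNA, both C/D motifs were found in 70.1% of the box C/D members and in 0.0248% of 4029 other annotated small RNAs of 60 to 420 bases. The 70.1% counts the 1 Snord116 sequence, which has both motifs, 14 times. For box H/ACA members the pair searched was ANANNA anywhere (N is any base; it can overlap other motifs) with ACA within the last 10 bases. That pair was found in 89.2% of box H/ACA members and in 6.68% of the same 4029 RNAs.

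The deposited values are kallisto estimated counts, and levels are given as CPM, a count divided by the library total and scaled to a common size of 1000000. Totals ran from 3120328 to 46965594 counts in 21 libraries, while 7348 counts make up mutant ZT6 replicate 2. In mutant ZT0 replicates 1 to 3 and mutant ZT6 replicate 3 the list of 13 myelinating oligodendrocyte genes, which marks brain tissue, summed to under 1000 CPM. Those 5 libraries were left out, which leaves 17 libraries in 5 groups and no mutant ZT0 library. The sample titles end in index numbers that fall into 3 runs, 1 to 4 (set 1), 5 to 18 (set 2) and 43 to 46 (set 3), and the labels do not say what the numbers stand for. Sets 1, 2 and 3 hold 4, 9 and 4 of the 17 libraries. In these libraries a count of 0 allows up to 3 counts, or 0.0639 to 0.205 CPM, by counting error alone.

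Among the 17 libraries, the members made up a larger share of the libraries of set 2 than of those of sets 1 and 3. In set 1 the share was 37.4 CPM in control SD replicate 1, 37.3 in mutant SD replicate 1, 27.1 in control SD replicate 2 and 40.4 in control ZT6 replicate 1. In set 3 it was 26.7 CPM in mutant SD replicate 4, 43.9 in control SD replicate 4, 33.8 in control ZT6 replicate 4 and 37.6 in mutant ZT6 replicate 4. In set 2 it ranged from 79.8 CPM in control ZT6 replicate 3 to 897 in control ZT6 replicate 2, with a median of 116.2. The lowest library of set 2 thus lay above the highest of sets 1 and 3, and without control ZT6 replicate 2 set 2 still ran from 79.8 to 191 CPM. Exact 95% binomial intervals for the share ran from 75.5 to 84.3 CPM in that lowest library and from 41.2 to 46.8 in the highest of the other sets. The intervals cover counting error only, since PCR copies of a molecule were not marked. Of the set 2 libraries left out for few myelin transcripts, mutant ZT6 replicate 3 held 49.0 CPM and mutant ZT0 replicates 1 to 3 held 756, 125 and 77.6.

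Within set 2 the states and genotypes overlapped. In set 2 the control ZT0 libraries held 159.5, 94.9 and 116.2 CPM, control ZT6 897 and 79.8, mutant ZT6 191, control SD 117 and mutant SD 114 and 95.5. The 2 control ZT6 libraries thus enclose all others of the set. Over all sets the range was 94.9 to 159.5 CPM at ZT0, 33.8 to 897 at ZT6 and 26.7 to 117 after SD, so the states overlap, and all 3 ZT0 libraries are in set 2. Controls ran from 27.1 to 897 CPM (median 79.8, 11 libraries) and mutants from 26.7 to 191 (median 66.5, 6 libraries), which overlap as well.

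The 3 classes followed the same order of sets. Box C/D members other than the 14 Snord116 members summed to 14.03 to 20.5 CPM in set 1, 35.9 to 461 in set 2 and 13.2 to 24.3 in set 3. Box H/ACA members summed to 11.5 to 17.5, 27.8 to 264 and 11.2 to 17.7 CPM. Cajal body members had medians of 2.15 CPM in set 1, 20.8 in set 2 and 2.01 in set 3. In all 3 classes the set 2 libraries among the 17 did not overlap the other sets. Mutant ZT6 replicate 3, a left-out set 2 library, held 23.7 CPM of box C/D, 24.1 of box H/ACA and 1.13 of Cajal body members.

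Rows that the rule did not choose had the same order. The 1414 other rows annotated as small nucleolar or Cajal body RNA, most of them without a Snord, Snora or Scarna symbol, summed to 45.2 to 60.2 CPM in set 1, 129.7 to 1121 in set 2 and 38.1 to 57.7 in set 3. The sum of 50 itself leans on set 2: 98 of the 111 members reach it in the 9 libraries of set 2 alone and 50 in the 8 libraries of sets 1 and 3, although the 2 blocks hold similar totals. Control ZT6 replicate 2 alone holds 35.7% of the member counts of the 17 libraries, and 17 members would miss the sum of 50 without it, 14 of them the Snord116 members. Counts and medians over members that compare the sets therefore describe this list and are not support for a difference.

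Other nuclear RNAs without a poly(A) tail were set beside the members. Rn7sk, the RNA that holds back the elongation factor P-TEFb, ran from 25.8 to 51.0 CPM in set 1, from 224 to 2197 in set 2 and from 38.6 to 178 in set 3. Rmrp, the RNA of RNase MRP, which cuts ribosomal RNA precursors, ran from 1.23 to 3.02, 14.9 to 142 and 1.21 to 6.26 CPM. Among the 17 libraries neither RNA overlapped between set 2 and the other sets. The left-out set 2 library mutant ZT6 replicate 3 held 16.5 CPM of Rn7sk and 4.89 of Rmrp. Rpph1, the RNA of RNase P, ran from 4.46 to 8.79 CPM in set 1 and from 31.6 to 603 in set 2, but its set 3 range of 14.6 to 62.9 overlaps that of set 2. By edgeR's quasi-likelihood F test with Benjamini-Hochberg adjustment over 21346 genes, with group in the model, Rn7sk changed by −4.08 ± 0.76 (log2 ± SE) in set 1 against set 2 (adjusted p = 0.00358) and by −2.63 ± 0.74 in set 3 (adjusted p = 0.0199).

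The sum of 67 histone rows, picked by symbol, did not follow this order. Messages of replication-dependent histone genes also lack a poly(A) tail, but whether each row's message does was not checked. The rows summed to 156 to 216 CPM in set 1, 108 to 208 in set 2 and 112 to 178 in set 3, and the ranges overlap. Of 38 tested singly, edgeR called 1 lower in set 1 and 3 in set 3 (backgrounds 7.43% and 9.73%) and 0 higher. Their median log2 change was −0.01 in set 1 and −0.88 in set 3, where all genes had 0.04 and −0.02. Malat1, a nuclear long RNA without a classical tail, ran from 685 to 911 CPM in set 1, 1166 to 7025 in set 2 and 1156 to 1439 in set 3. Other measures also moved with the sets. The share of mitochondrially encoded counts was 4.58 to 6.78% in set 1, 6.21 to 11.7% in set 2 and 5.05 to 7.17% in set 3, and the 9 pituitary genes summed to 131 to 27899, 37.1 to 102 and 59.6 to 1236 CPM. Of the pituitary genes, 7 of 9 were called higher in set 1 and 5 of 9 in set 3 than in set 2 (backgrounds 10.9% and 12.7% higher). None was at 0 throughout set 1 or set 3. The part of these measures in the small nucleolar RNA share was not tested.

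**Figure D1:**
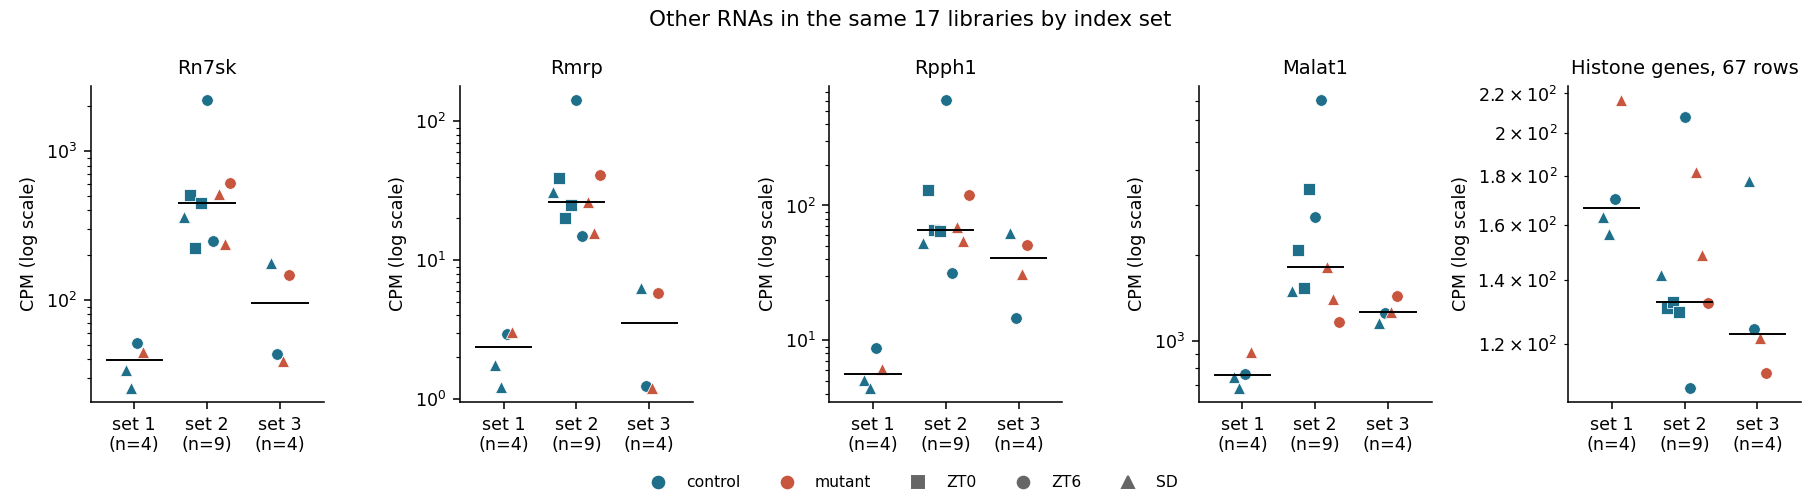
CPM of Rn7sk, Rmrp, Rpph1, Malat1 and the summed histone rows in the 17 libraries, on log scales, by index set. Each point is 1 library, colour marks the genotype, shape the state, and lines are medians. Rn7sk and Rmrp of set 2 (at least 224 and 14.9 CPM) lie above all other libraries, whereas the histone rows overlap.

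Among single members the differences between sets were uneven. Snord22, hosted by the non-coding gene Snhg1, held 0.22, 0.83, 0.30 and 0.87 CPM in set 1 and 0, 0.51, 0.34 and 0.74 in set 3, and from 2.18 to 147 with a median of 10.4 in set 2. Every set 2 library stood above the others. Its change was −5.40 ± 1.06 in set 1 (adjusted p = 0.00463) and −5.90 ± 1.12 in set 3 (adjusted p = 0.00224, edgeR). Snord15b, a guide on large-subunit ribosomal RNA that lies in the ribosomal protein gene Rps3, held 0.44, 0.86, 0.57 and 1.58 CPM in set 1, 0.27, 1.20, 0.62 and 1.94 in set 3, and 4.60 to 88.4 (median 12.4) in set 2. Again no set 2 library overlapped the others, and the fitted change was −4.60 ± 0.79 in set 1 (adjusted p = 0.00255) and −4.40 ± 0.80 in set 3 (adjusted p = 0.00176, edgeR).

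Scarna10, a Cajal body RNA that guides modification of a spliceosomal RNA and lies in the condensin gene Ncapd2, held 0.27, 0.53, 0.18 and 0.60 CPM in set 1 and 4.94 to 59.1 (median 12.8) in set 2. In set 3 it held 0, 3.68, 1.16 and 0.63 CPM, so control SD replicate 4 came nearest to set 2 without reaching it. The changes were −5.65 ± 1.00 in set 1 (adjusted p = 0.00292) and −3.74 ± 0.94 in set 3 (adjusted p = 0.0118, edgeR). Snora73b, needed for processing of ribosomal RNA precursors and hosted by Snhg3, held 0.27, 0.59, 0.06 and 0.55 CPM in set 1, 0.33, 0.32, 0 and 0.21 in set 3, and 3.05 to 36.2 (median 5.61) in set 2. It did not overlap either, at −4.59 ± 0.87 in set 1 (adjusted p = 0.004) and −5.12 ± 0.94 in set 3 (adjusted p = 0.00178, edgeR).

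Snora65 shows the other end of the range. It guides pseudouridylation of ribosomal RNA, lies in the ribosomal protein gene Rpl12, and was the most abundant member in sets 1 and 3. Its levels were 4.26, 2.39, 2.15 and 3.34 CPM in set 1, 3.29, 5.34, 3.01 and 2.71 in set 3, and 1.90 to 6.57 (median 3.02) in set 2, so all sets overlap. The fitted changes of −0.28 ± 0.39 in set 1 and 0.20 ± 0.37 in set 3 did not pass the test (adjusted p = 0.672 and 0.744, edgeR). A miss does not show that its levels are equal.

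The other abundant members lay between these. Snora81, in the translation factor gene Eif4a2, held 1.13 to 1.30 CPM in set 1, 3.92 to 52.9 in set 2 and 1.10 to 2.58 in set 3. Scarna2, a guide for spliceosomal RNA with its own gene, held 0.25 to 0.92, 2.64 to 14.7 and 0.21 to 2.44 CPM, Scarna13 (host Snhg10) 0.33 to 0.66, 1.80 to 18.9 and 0.16 to 0.48, and Snora73a (host Snhg3) 0 to 0.47, 1.31 to 19.2 and 0 to 0.51. These 4 members did not overlap between set 2 and the others. Snord104, Snord17 and Snord21 overlapped with 1 or both sets: Snord21, in the ribosomal protein gene Rpl5, ran from 0.39 to 0.99 CPM in set 1, 0.94 to 19.4 in set 2 and 1.37 to 4.97 in set 3, and was called lower in set 1 but not in set 3 (adjusted p = 0.043 and 0.641, edgeR). These members with Snord22, Snord15b, Scarna10, Snora73b and Snora65 are the 12 of highest summed counts, and the same 12 lead without control ZT6 replicate 2.

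Per length, the order in set 2 without control ZT6 replicate 2 was Snord22 at 98.4 CPM per kilobase, Snord15b at 80.3, Snora81 at 55.8, Snord104 at 36.0, Scarna10 at 32.1, Snora73b at 27.7, Snord64 at 23.4, Snord21 at 22.7 and Snora65 at 21.7. The lowest member by the same measure was Snora24, hosted by Snhg8, at 0.351.

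**Figure D2:**
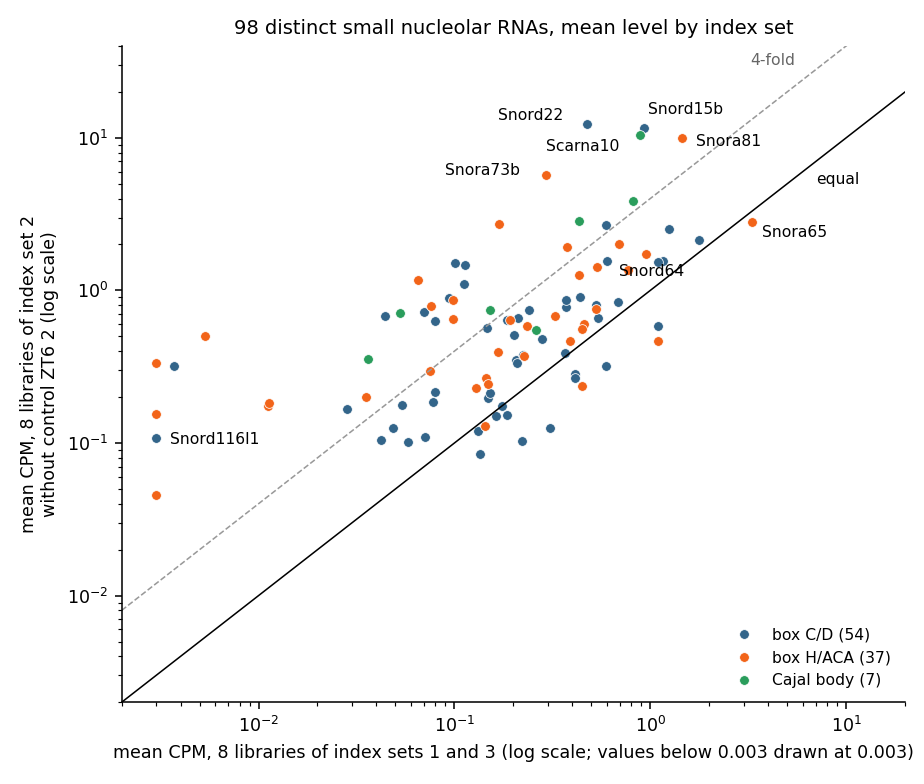
Mean CPM of 98 distinct member sequences in the 8 libraries of set 2 without control ZT6 replicate 2 (vertical) against the 8 libraries of sets 1 and 3 (horizontal), on log scales, coloured by class. The solid line marks equal levels and the dashed line 4-fold. Past 4-fold stand 33 sequences, of which Snord22, Snord15b, Scarna10, Snora81 and Snora73b have the highest set 2 means (Snora24, at 0 in sets 1 and 3, is drawn above the line but its floor gives at least 3.55-fold), while Snora65 lies near the solid line.

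Since the 14 Snord116 members are one sequence, 98 distinct sequences remain. Without control ZT6 replicate 2, the mean of set 2 was over 4-fold that of sets 1 and 3 for 33 of these, under 1.5-fold for 27, and below it for 15, with a median of 2.48-fold. Members at 0 in all 8 libraries of sets 1 and 3 were set to a floor of 3 counts over those libraries, which makes Snora44 at least 26.1-fold, Snora16a at least 12.1-fold and Snora24 at least 3.55-fold higher in set 2. All 3 are box H/ACA RNAs in non-coding Snhg genes. Over the 50 members that reach 50 counts in sets 1 and 3 alone, the median was 1.92-fold, with 9 over 4-fold and 19 under 1.5-fold.

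Of the 98 members that passed the low-count filter (13 did not), edgeR called 42 lower in set 1 than in set 2 and none higher, where the background over all genes tested was 7.43% lower. The 42 are the 14 Snord116 copies and 28 others. Against set 3 it called 36 lower, with a background of 9.73% lower, with 1 higher, Snord42b (1.15 ± 0.38, adjusted p = 0.0436). Called lower in both sets were 22 members, for which no share of all genes called in both was counted. They are the Cajal body RNAs Scarna2, Scarna3a, Scarna10 and Scarna13, the H/ACA RNAs Snora7a, Snora15, Snora16a, Snora26, Snora44, Snora73a, Snora73b, Snora74a and Snora81, and the C/D RNAs Snord8, Snord13, Snord14d, Snord15a, Snord15b, Snord16a, Snord22, Snord67 and Snord118. Snord13 and Snord118 act in the processing of ribosomal RNA precursors. Called in set 1 alone were Snora21, Snora23, Snord17, Snord21, Snord64 and Snord104, and in set 3 alone Scarna6, Scarna9, Snora3, Snora5c, Snora28, Snora30, Snora33, Snora34, Snora35, Snora69, Snora70, Snord14c, Snord32a and Snord89, with no test of the difference between the sets.

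These counts depended on single libraries, and the share of all genes called lower moved too. In set 1, 12 of the 17 leave-outs ended the call of the Snord116 copies. These fits gave between 8 members (without control ZT6 replicate 1, background 3.66% lower) and 27 (without mutant ZT6 replicate 4, 6.36%). Leaving out control SD replicates 1, 2 and 3 in turn gave 24, 21 and 20 members (backgrounds 5%, 5.34% and 4.82%). For mutant SD replicates 1, 2 and 3 the counts were 20, 22 and 25 (5.22%, 5.24% and 5.64%). Without control ZT6 replicate 2 the count was 24 (12.6%), and without mutant ZT6 replicate 1 it was 26 (5.79%). Leaving out control ZT0 replicates 1 and 2 in turn gave 25 and 26 (6.38% and 7.89%). In set 3 the count was 62 without control ZT6 replicate 3 (background 11%), with the copies among them. With no filter on low counts, 43 and 62 of all members were called lower in sets 1 and 3, against backgrounds of 4.83% and 6.88%. Without control ZT6 replicate 2, 24 and 36 of 78 were called lower, against 12.6% and 15.4%. Levels of 18 members did not overlap between set 2 and the other sets, and 0.712% of all genes tested had that pattern.

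**Figure D3:**
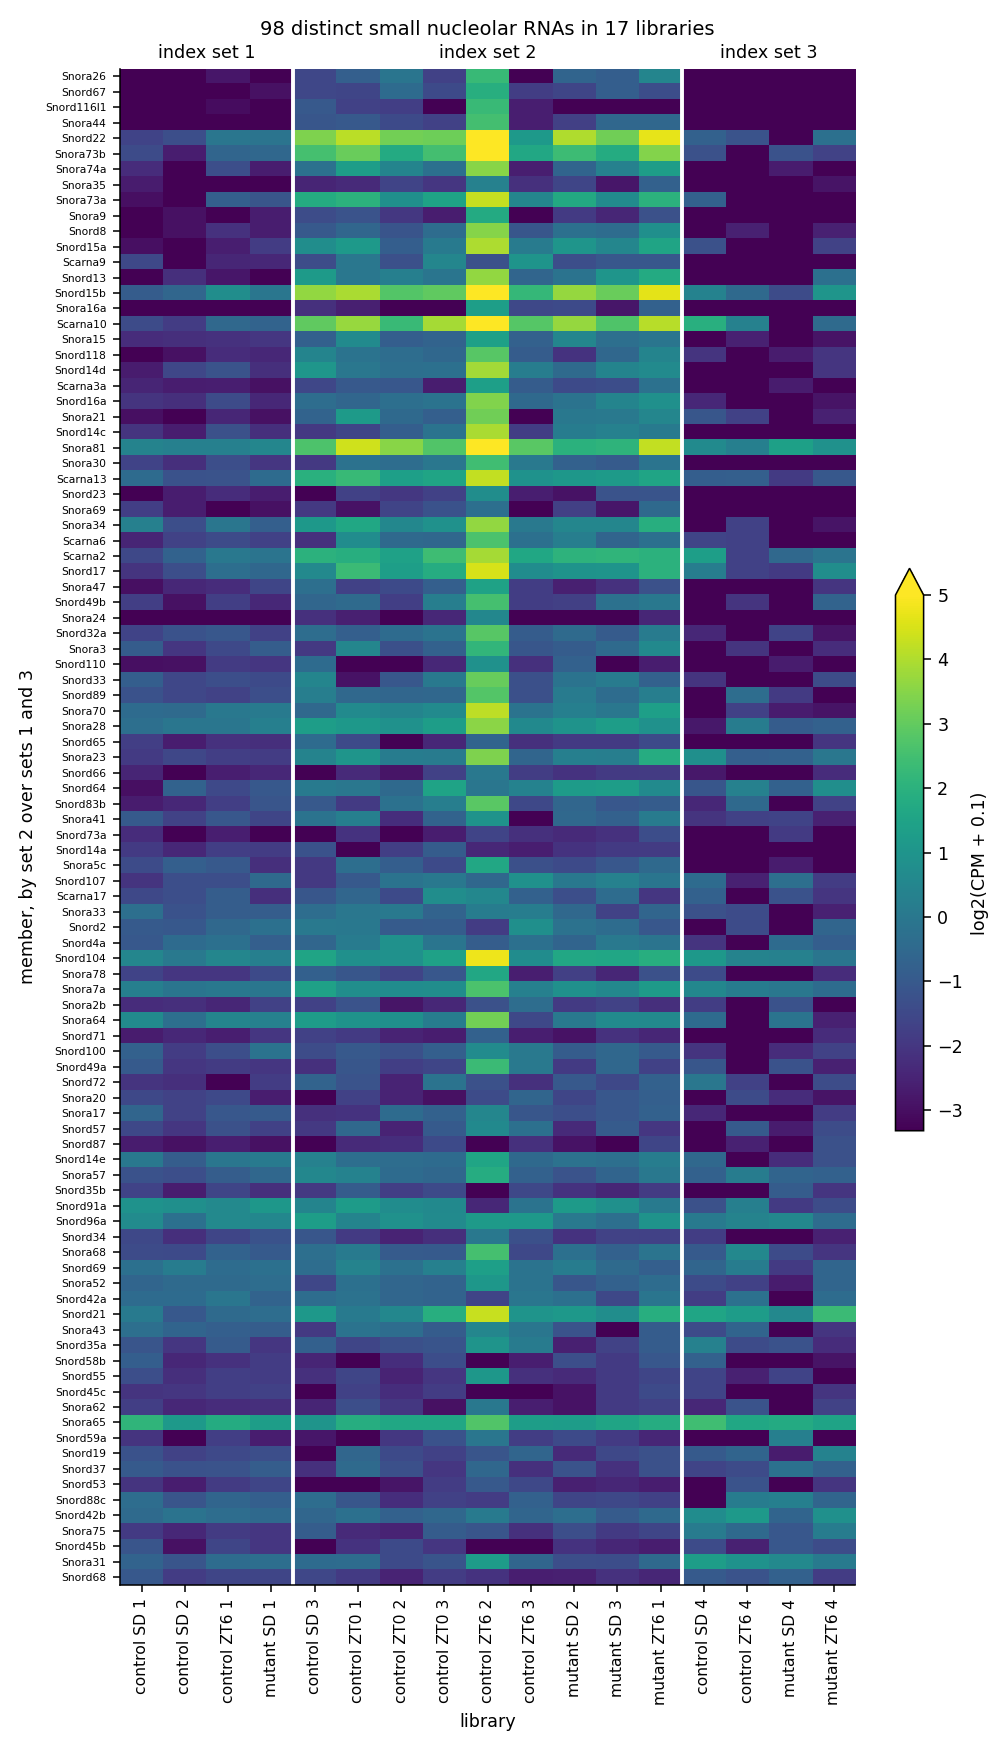
Levels of 98 distinct member sequences (rows, ordered by the ratio of set 2 to sets 1 and 3) in 17 libraries (columns, by index set), as log2(CPM + 0.1). Snord22, Snora73b, Snord15b, Scarna10 and Snora81 are bright in set 2 and dark in sets 1 and 3, Snora65 is even across sets, and control ZT6 replicate 2 stands out by bright rows.

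The host gene, the length and the class went along with the size of the difference, described here over the 98 distinct sequences with no test. Members in non-coding host genes (18, such as Snord22 in Snhg1 and Snora44 in Snhg12) had a median of 11.3-fold in set 2 over sets 1 and 3, those in genes of ribosomal proteins (31) 1.78-fold, those in other protein-coding genes (41) 2.49-fold and those with no host (8) 2.07-fold. By length the median was 1.69-fold under 100 bases (46 members), 3.46-fold from 100 to under 140 bases (36) and 6.67-fold from 140 bases (16). By class it was 2.04-fold for box C/D, 2.88-fold for box H/ACA and 6.53-fold for Cajal body members. The 3 properties overlap in these members, since box C/D RNAs are the shortest, and their parts cannot be told apart. Spearman's rho of length with fold was 0.40 over the 98, which share the libraries.

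Members of one host moved alike in some hosts and not in others, described here for the hosts with 3 or more distinct members and for Snhg3 and Rps3. In Snhg3, Snora73b and Snora73a were 19.4- and 16.1-fold higher in set 2, and in Rps3 Snord15a and Snord15b 15.2- and 12.47-fold. In the non-coding gene 2410006H16Rik, Snord49b, Snord65 and Snord49a were 3.88-, 2.70- and 1.71-fold higher. In the chaperone gene Hspa8, Snord14d and Snord14c were 9.80- and 7.90-fold higher in set 2, and Snord14e 1.51-fold. In the ribosomal protein gene Rpl13a, Snord32a and Snord33 were 3.43- and 3.12-fold higher, Snord34 1.34-fold and Snord35a 1.05-fold. In Rpl23a, Snord4a was 2.05-fold and Snord42a 1.22-fold higher and Snord42b stood at 0.537-fold.

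The host transcripts themselves differed less. Of the 98 distinct sequences 44 lie in introns of the host and 46 overlap an annotated host exon. Member and host counts are therefore not fully separate for those 46. Of 71 host genes 65 were tested, of which 8 were called lower and 5 higher in set 1 than in set 2, and 4 lower and 9 higher in set 3, against backgrounds of 18.3% and 22.4% of all genes called in either direction. Apart from the Snord116 copies, 20 members called lower in set 1 have a tested host, and that host was called lower for 4 and higher for 1. Their median change was −4.23 and that of their hosts −0.24. In set 3 the 28 such members had a median of −5.10 and their hosts −0.03, with 0 hosts called lower and 5 higher. These members were picked by their own call, which favours large member changes. Over all 98 tested members, copies included, the medians were −2.29 in set 1 and −3.34 in set 3. Over the 65 tested hosts they were −0.19 and 0.05.

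Proteins that bind and assemble these RNAs were also measured. Of 20 genes, comprising the box C/D core (Fbl, the methyltransferase, with Nop56, Nop58 and Snu13), the box H/ACA core (Dkc1, the pseudouridine synthase, with Nhp2, Nop10 and Gar1) and 12 assembly and transport factors, Nop58 was lower (−0.68 ± 0.11, adjusted p = 0.00186) and the helicase gene Ruvbl2 higher (0.59 ± 0.15, adjusted p = 0.0181) in set 1. In set 3, 6 were called higher, among them Fbl (0.92 ± 0.22, adjusted p = 0.00928) and Znhit6, an assembly factor of box C/D particles (1.17 ± 0.15, adjusted p = 0.000148), and 3 lower, Nolc1, Nop10 and Snu13 (all edgeR). Of the 13 Snhg and Gas5 host rows, 1 was called lower in each set, Gas5 in set 1 (−0.64 ± 0.20, adjusted p = 0.0407, edgeR) and Snhg14 in set 3 (−1.25 ± 0.40, adjusted p = 0.0369, edgeR). Beside these counts, 10.9% of all genes tested were called higher and 7.43% lower in set 1, and 12.7% and 9.73% in set 3.

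Sleep deprivation, time and genotype called no member in the 17 libraries. After SD in control mice, edgeR called 0 of 98 tested members, against a background of 0% of 21346 genes. DESeq2 also called 0 members, of which 33 had no adjusted p, and called 0.0843% of genes. At an unadjusted p under 0.05 stood 22 members (22 also by DESeq2), where 6.17% of all genes did. The 98 tested members hold 85 distinct sequences, since the 14 Snord116 copies have equal counts and enter such counts together or not at all. The smallest p-values were those of Snord83b (host Rpl3), Snord14c (host Hspa8) and Snord8 (host Chd8), at −3.83 ± 1.24, −5.53 ± 1.81 and −4.92 ± 1.76 (adjusted p = 0.699 each, edgeR). The median change of the members was −2.29 and of all genes −0.02. Without control ZT6 replicate 2 the members' median was 0.11 and 0 of 78 had an unadjusted p under 0.05 (background 6.09%), so these values rest on that library.

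In the other comparisons edgeR also called 0 members, against a background of 0% of all genes. DESeq2 called 0 members in each, with no adjusted p for 21 of them, and called 0.075% of genes after SD in mutants, 0.00468% between genotypes after SD, 0.0703% between genotypes at ZT6 and 0.108% between ZT6 and ZT0. After SD in mutant mice the unadjusted count was 1 (1 by DESeq2; background 2.16%), with Snord19, Snord42b and Snord21 first (−2.22 ± 0.94, −1.13 ± 0.62 and −1.69 ± 1.04, adjusted p = 1 each, edgeR). Mutant against control after SD it was 0 (1 by DESeq2; background 2.96%), with Snord59a, Snord35a and Snord64 first (2.92 ± 1.41, −1.61 ± 0.80 and 1.52 ± 0.83, adjusted p = 0.999 each, edgeR). Mutant against control at ZT6 it was 1 (3 by DESeq2; background 2.65%), with Snord49a, Snora68 and Snord69 first (−3.50 ± 1.53, −2.13 ± 1.11 and −1.29 ± 0.70, adjusted p = 0.999 each, edgeR). ZT6 against ZT0 in control mice it was 2 (6 by DESeq2; background 3.25%), with Snord49a first (2.67 ± 1.22, adjusted p = 0.96, edgeR). Snora16a and Snord110 followed, with 2, 0 and 0 and 0, 0 and 3 counts at ZT0 against 0, 54, 4 and 0 and 8, 39, 2 and 0 at ZT6.

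The median change of the members turned with 1 library wherever the control ZT6 group was used. Mutant against control at ZT6 it was −1.43 with and 0.86 without control ZT6 replicate 2, and ZT6 against ZT0 in controls 1.25 with and −0.94 without it. With the index set as a covariate edgeR called 0 members. The unadjusted counts were 9 for SD in controls (background 9.14%), 1 for SD in mutants (3.1%) and 1 for mutant against control after SD (9.18%). For mutant against control at ZT6 the count was 15 (4.24%), and for ZT6 against ZT0 it was 42 (7.64%). Such counts take the 14 Snord116 copies, which are 1 measurement, as 14 members wherever they pass. The 20 binding and assembly genes had 0 calls in these 5 comparisons. Their smallest unadjusted p was that of Nhp2 at ZT6 against ZT0 in controls (0.91 ± 0.36, adjusted p = 0.96, edgeR), where Gar1 (0.66 ± 0.35) and Fbl (0.71 ± 0.43) came next.

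At ZT0 the mutant libraries are the ones with few brain transcripts, and that comparison used all 22 libraries. The myelin list summed to 30.8 to 46.4 CPM in mutant ZT0 and 6500 to 7547 in control ZT0, with 13 of 13 genes called lower and Opalin at 0 in all 3 mutants. The 8 transmitter neuron genes summed to 1.60 to 4.97 against 2763 to 3150 CPM, with 7 of 8 lower and Slc17a7 at 0, and the 7 meninges and fibroblast genes to 7781 to 23052 against 379 to 1243 CPM, with 6 higher and 1 lower. The part of tissue in the members' differences was not tested. edgeR called 13 of 83 tested members, 9 higher and 4 lower in mutants, against a background of 50.1% of genes called (20.9% higher and 29.2% lower). At an unadjusted p under 0.05 stood 21 members, with a background of 56.3%. Without mutant ZT0 replicate 1, whose share was 756 CPM against 125 and 77.6 in the other 2, 3 of 101 tested members were called. Without control ZT0 replicates 2 or 3, 6 of 92 and 5 of 91 were called. These 3 fits called 42.6%, 41.2% and 40.6% of all genes.

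The 4 members called lower in mutants at ZT0 were Snord107, Snord64, Snord91a and Snord37, and each of the 9 alternative fits called 2 members lower. Snord107 was called in all 9. Snord64 lost the call without mutant ZT0 replicate 2 (adjusted p = 0.103, edgeR) and without control ZT0 replicate 3 (adjusted p = 0.0857, edgeR). Snord107 was at 0 in all 3 mutant libraries and at 0.40, 0.80 and 0.91 CPM in the controls, which is at least 12.05-fold lower against a floor of 3 counts over the group (adjusted p = 0.00294, edgeR). Snord64 had 0.13, 0 and 0 CPM in mutants against 0.87, 0.61 and 2.76 in controls (adjusted p = 0.0215, edgeR). The mutant values rest on 2 counts, and the controls were higher by a ratio of 38.4 (95% counting interval 10.4 to 320). For both members the groups do not overlap. Snhg14, the neuronal transcript upstream of which both lie, fell by 3.27 ± 0.77 in the same comparison (adjusted p = 0.00186, edgeR). Snord91a and Snord37 changed by −2.59 ± 1.01 and −2.51 ± 0.99 (adjusted p = 0.0388 and 0.0405, edgeR), and each lost the call in 8 of the 9 alternatives, Snord91a keeping it without mutant ZT0 replicate 2 and Snord37 without control ZT0 replicate 3.

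The 9 higher members were Snord87, Snora31, Snora33, Snora52, Snora65, Snora16a, Snora57, Snord100 and Snora68. Without mutant ZT0 replicate 1, edgeR called 1 member higher (background 17.1% higher), and the members' median change was −0.01 against 1.74 with it. Leaving out control ZT0 replicates 2 or 3 gave 4 and 3 higher (15.6% each). The other fits that leave out 1 library gave 7 to 12. Snord87, in the non-coding host Snhg6, had 0.90, 0.78 and 1.60 CPM in mutants and 0.10, 0.11 and 0.26 in controls, with no overlap (3.14 ± 0.86, adjusted p = 0.00539, edgeR). Snora31, in Tpt1, had 4.97, 1.12 and 0.96 CPM against 0.67, 0.27 and 0.35 (3.04 ± 0.90, adjusted p = 0.00906, edgeR). Snora33 had 14.46, 1.55 and 0.32 CPM against 0.87, 0.92 and 0.53, so the groups overlap and 1 library is far above the rest. Snora65 had 12.2, 3.79 and 4.17 CPM against 3.57, 3.03 and 3.02 (1.63 ± 0.57, adjusted p = 0.0236, edgeR). Of 65 tested hosts 39 were called higher and 4 lower, where 20.9% and 29.2% of all genes were. Among the 20 binding and assembly genes 6 were higher, such as Nhp2 (2.68 ± 0.51, adjusted p = 0.000442, edgeR) and Fbl (2.22 ± 0.51, adjusted p = 0.00157, edgeR). Nolc1, at 0 in all 3 mutants and 13.3 to 19.9 CPM in controls, was lower.

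The Snord116 members form a group of their own. All 14 lie in introns of Snhg14 on chromosome 7 (minus strand, 59307924 to 59975759, GRCm38), and their values are equal in each of the 22 libraries. Their sequence of 94 bases stands on 30 rows of the Snord116 cluster (59673461 to 59923122), 16 of which carry other symbols, and each row sums to 132 counts over the libraries. Reads of this sequence cannot be told apart between copies, and the equal values are shares of one total. Since shares were rounded to whole counts, a value of 0 in each copy can stand for fewer than 15 counts over the 30 rows. The 14 members are thus 1 measurement.

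Per copy, control ZT0 replicates 1, 2 and 3 gave 6, 5 and 0 counts. Control ZT6 replicates 1 to 4 gave 1, 109, 1 and 0, and among control SD libraries replicate 3 gave 10 and the rest 0. Each of the 11 mutant libraries was at 0, and 3 of these from set 2 (mutant SD replicates 2 and 3 and mutant ZT6 replicate 1) nevertheless held 3400, 2275 and 6526 counts of other members. Of the 11 control libraries 6 had counts, and 5 of these 6 are in set 2. In set 2 the copies were at 0 in 1 of 6 control libraries, control ZT0 replicate 3, and in 3 of 3 mutant libraries of the 17. In sets 1 and 3, where the members' share is low, the copies overlap at 0 in control and mutant libraries except for control ZT6 replicate 1 with 1 count. Neither genotype comparison called Snord116l1 (adjusted p = 0.999 at ZT6 and after SD, edgeR), and at ZT0 it did not pass the low-count filter.

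Of the member counts, the 14 copies made up 7.65% of member counts in control ZT6 replicate 2, 4.82% in control SD replicate 3 and 1.77% and 2.82% in control ZT0 replicates 1 and 2. Counting all 71 annotated rows of the cluster, copies and others, control ZT6 replicate 2 had 5471 counts, control SD replicate 3 had 494, and control ZT0 replicates 1, 2 and 3 had 269, 238 and 3. Control ZT6 replicates 1, 3 and 4 had 65, 91 and 0, and control SD replicates 1, 2 and 4 had 7, 6 and 4. Among mutants mutant ZT6 replicate 1 had 4 and the other 10 had 0.

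No row of the Snord115 cluster has a Snord115 symbol, so none is a member. The 137 annotated rows of that cluster (59342226 to 59619095), whose RNAs pair with the serotonin receptor transcript Htr2c, were read in both genotypes outside the 5 libraries left out. They summed to 1.30 to 7.64 CPM in the mutant libraries of sets 1 and 2 and to 2.15 to 66.4 in the controls of those sets. In set 3 they summed to 0.219 and 0.775 CPM in mutants and 0.598 and 1.30 in controls. The genotypes overlap in both blocks, and the order of sets is again that of the members.

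Snord64 and Snord107, box C/D RNAs without a known ribosomal target, lie on chromosome 7 at 59978808 to 59978874 and 59980876 to 59980945, just outside the Snord116 cluster and within the span of Gm38393. Unlike Snord116, both were read in mutants of the 17 libraries. After SD, Snord64 had 0.38, 2.28, 2.39 and 0.49 CPM in mutants and 0.03, 0.51, 0.97 and 0.37 in controls, and Snord107 had 0.62, 0.90, 1.18 and 0.71 CPM against 0.14, 0.30, 0.16 and 0.64. The groups overlap, and the changes of 1.52 ± 0.83 and 1.38 ± 0.78 did not pass the test (adjusted p = 0.999 each, edgeR). At ZT6 the mutants had 1.46 and 1.62 CPM of Snord64 and 0.85 and 0.18 of Snord107, against 0.26, 0.85, 1.18 and 1.16 and 0.30, 0.58, 1.74 and 0.07 in controls. Snord64 is higher in both mutants than in the 4 controls, and Snord107 overlaps, with neither called (adjusted p = 0.999 each, edgeR).

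**Figure D4:**
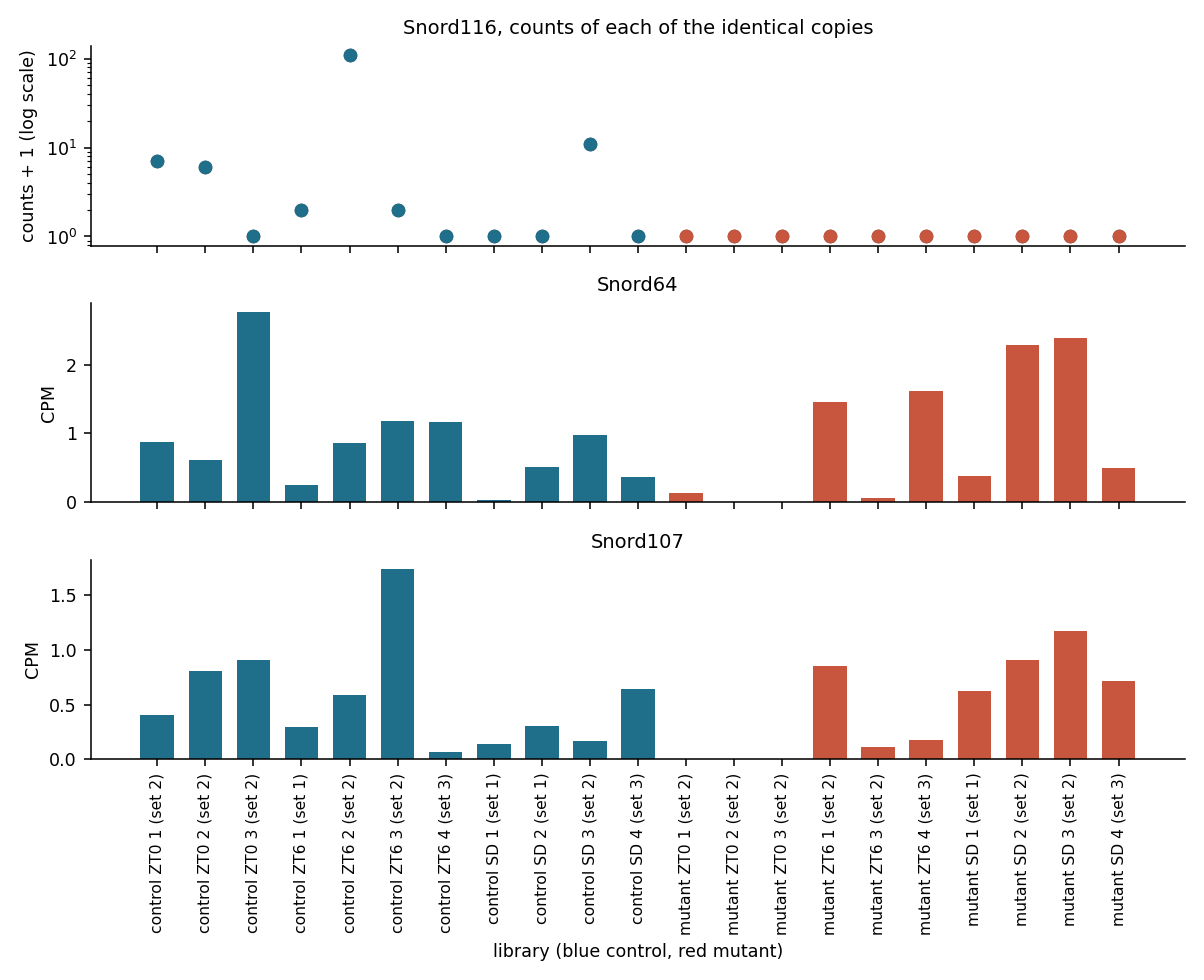
Counts of each identical Snord116 copy plus 1 (top, log scale) and CPM of Snord64 and Snord107 (middle and bottom) in the 21 libraries other than mutant ZT6 replicate 2, by group, with controls in blue and mutants in red. Snord116 is at 0 in all mutants shown and reaches 109 in control ZT6 replicate 2, while Snord64 and Snord107 are present in mutants of the 17 libraries and at most 0.13 CPM in the mutant ZT0 libraries and mutant ZT6 replicate 3.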

How the data were processed

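RNA of 22 mouse hypothalamus libraries was sequenced after TruSeq poly(A) selection. Per the labels' protocols, the authors trimmed reads with Trimmomatic 0.38, made estimated counts per transcript with kallisto 0.44.0 against an Ensembl 79 index, and used tximport to sum them per gene. Deposited values are these expected counts, in whole numbers. Sequences identical between genes share their reads in such estimates.

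CPM are counts over the library total. Genes were tested with edgeR 4.0.16 (R 4.3.3; quasi-likelihood F test, TMM factors, filterByExpr by group, Benjamini-Hochberg adjustment over all genes, threshold 0.05), in 17 libraries for all comparisons but mutant against control at ZT0, which used 22. Tests of index sets kept group in the model. The SE given with edgeR changes was derived from the test, as the absolute log2 change over the square root of the F statistic. Alternatives were DESeq2 1.42.0, RLE factors, no filter, all libraries, the index set as a covariate, leaving out set 3, and leaving out each library. Those for sets 1 and 3 that leave out a library, and the median share without control ZT6 replicate 2, were chosen after seeing the data. Scripts were tested on simulated data. Annotation and sequences are GENCODE M21 (GRCm38).

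The members and gene lists were chosen with earlier results of these data known. Named members are all called ones, or the 3 of smallest p where fewer than 3 were called, the 12 of highest summed counts, Snord116 members, and those nearest the sum of 50.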

Additional observations from a re-analysis of the deposited data

Results flagged for a closer look

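Within groups of 4 libraries, the highest library stood apart from the other 3 by more than Dixon's 95% critical value in 23 of 57 tests. Chance gives about 1 in 20 for values not chosen on these libraries. The members were chosen by summed counts of the same libraries, and Snord116l1 reached 50 only with control ZT6 replicate 2 (23 counts without it), so that rate does not apply to them and the flags are a description. All 23 concern control ZT6 replicate 2 or control SD replicate 3, and the tests share these libraries.

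In control ZT6 replicate 2 the members' share was 897 CPM (79.8 at most in the other 3). Rn7sk was at 2197 CPM, Rmrp at 142 and Rpph1 at 603. Among members it held 147 CPM of Snord22, 88.4 of Snord15b, 59.1 of Scarna10, 52.9 of Snora81 and 36.2 of Snora73b. It also held 27.3 CPM of Snord104, 22.7 of Snord17, 19.4 of Snord21, 19.2 of Snora73a, 18.9 of Scarna13 and 4.9 of Snord116l1.

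Control SD replicate 3, the one set 2 library of its group, held 31.2 CPM of Rmrp, 10.4 of Snord22, 12.4 of Snord15b, 6.31 of Snora81 and 5.74 of Snora73b. It held 3.8 CPM of Scarna13, 3.4 of Snora73a and 0.405 of Snord116l1, which was at 0 in the other 3.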

How the results depend on the processing

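No paired analysis was possible because the replicate numbers were given in accession order and pair no samples. With all 22 libraries, 1 member was called after SD in mutant mice, 0 in set 1 and 10 in set 3 against set 2. Those fits called 0.833%, 0.173% and 2.08% of all genes. Without the low-count filter 62 were called in set 3, all lower, against a background of 6.88% lower. Leaving out each library gave 8 to 51 called members in set 1, 25 to 62 in set 3 and 3 to 14 at ZT0 in mutants. The shares of all genes called ran from 9.1 to 24.6%, 14.4 to 30.1% and 40.6 to 45.8%. The 51 and both counts of 62 include the 14 Snord116 copies. Over the fits that leave out 1 library, the log2 change of Snora65 ran from −0.616 (without control SD replicate 3) to 0.0540 (without control ZT6 replicate 2) in set 1. In set 3 it ran from −0.109 (without control SD replicate 4) to 0.454 (without control ZT6 replicate 2), with −0.0610 without control SD replicate 3, and was −0.0136 with all 22 libraries. Snord21 in set 3 ran from −0.922 (without mutant ZT6 replicate 4) to 0.228 (without control ZT6 replicate 2). Snord107 at ZT6 in mutants ran from −1.77 (without mutant ZT6 replicate 1) to 0.677 (without control ZT6 replicate 3), with 0.441 without mutant ZT6 replicate 4 and 0.0624 without index set 3. The cause was not tested. Of the other values of single genes under an alternative, 742 kept their direction and side of the threshold, 91 lost the call and 10 gained one. Counts of 0 in shallow libraries limit the low members.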
